A study of Mus musculus with 13 samples.

Results

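The comparison set the cytoplasm of mouse oocytes that had lost the RNA helicase MTR4 against the cytoplasm of wild-type (WT) oocytes, gene by gene. Its members were the 15817 of 23235 genes whose deposited value reached 1 in the MTR4-null cytoplasm column, the WT cytoplasm column or both. The labels name 2 library groups for the WT cytoplasm, at day 14 and at day 21 with 2 libraries each, and 1 group for the MTR4-null cytoplasm, at day 21 with 2 libraries. The same labels list WT nuclei at day 14 (2 libraries) and day 21 (3 libraries) and MTR4-null nuclei at day 21 (2 libraries). Each library held polyadenylated RNA from 10 nuclei or 10 cytoplasms that had been parted by micromanipulation, and Smart-seq2, which primes on the poly(A) tail of minute amounts of RNA, was used to prepare it. The genotype labels read WT and Mtr4-null, and no label gives a strain, an allele or a Cre line. The table holds 1 column per genotype and compartment, so no spread between libraries is known, no test was possible and every difference below is given by its size only. By the digits of its values, the null cytoplasm column may hold 1 library only. The WT column names no day, so that genotype and age cannot be told apart in any value below.

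MTR4 is an RNA helicase that unwinds nuclear RNA and feeds it into the exosome, a complex of nucleases that degrades RNA from its 3' end. Its usual substrates include the spacers and tails of ribosomal and small nucleolar RNA precursors, promoter upstream transcripts, and long noncoding RNAs that are made and then removed in the nucleus. Growing oocytes store large amounts of stable mRNA in the cytoplasm for use during meiotic maturation and the first divisions of the embryo, after transcription has stopped.

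The columns stood on different scales. Their totals were 6637345 for WT and 3007242 for null, and depth in reads is unknown. The columns were therefore brought together with a divisor each, the median over 15665 genes above 0 in both of the ratio to the gene's geometric mean (1.31 for WT and 0.762 for null). A difference on this scale is called relative and is log2((null + 1)/(WT + 1)) of the rescaled values, so it reads each gene beside the middle gene of the table, and a change in total RNA would not appear in it. Adding 1 makes differences between small values look smaller. A gene is called higher or lower in null when it differs at least 2-fold on that scale, unless the deposited scale is named. Values in text are as deposited. The gene just inside the limit was Morc4 (1.001 in WT and 0.620 in null), and the one just outside was LOC434205 (0 and 0.999). Of the members, 1174 were under 1 in WT and were kept only through null, and 1321 were under 1 in null and were kept only through WT. The limit thus selects for a deposited difference in such genes. On the relative scale, 1046 of the 1174 were higher, 0 were lower and 128 were within 2-fold.

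Relative to the median gene, 4075 of 15817 genes (25.8%) were higher in the null cytoplasm and 3827 (24.2%) were lower. On the deposited scale, 2565 (16.2%) were higher and 7015 (44.4%) lower, and the median difference of all genes was -0.80 there against -0.08 on the relative scale. Values ranked genes alike in broad terms (Spearman rho = 0.828 across genes, which are not independent replicates). Of the 100 genes with the highest values in each column, 54 were shared, as were 726 of the top 1000. The top 100 genes other than small RNA genes held 27.6% of the summed values in WT and 25.6% in null.

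Skiv2l2, the gene of MTR4, had a value of 187 in WT cytoplasm against 4.36 in null (relative difference -4.42). Its rank by value, small RNA genes aside, was 4249 in WT and 11984 in null. In the nuclei it had 13.3 in WT and 3.54 in null. The value in the null column was thus low but not 0.

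Both columns carried oocyte RNA. All 16 oocyte markers were above 0 in both columns, and they held 4.39% of the WT total and 3.22% of the null total. Gdf9, a growth factor that oocytes secrete to the surrounding granulosa cells, had 46246 and 15224. The 22 granulosa cell markers held 0.0385% of the WT total and 0.0292% of the null total, with 2 at 0 in WT and 0 at 0 in null. These shares rest mostly on Serpine2, which had 2018 and 550 of summed values of 2556 and 877. Of the 22 markers, 8 were higher and 2 lower in null, and 4 were under 1 in WT. Foxl2, a transcription factor of granulosa cells, had 0.117 and 7.10. Cyp19a1, the estrogen-making aromatase, had 78.0 and 15.4. Fshr, the receptor for follicle-stimulating hormone, had 8.10 and 5.38. The 13 theca and stroma markers summed to 21.5 in WT and 3.87 in null (3 and 6 at 0), and the 22 blood, immune and endothelial markers to 233 and 49.7 (9 and 11 at 0). Fewer cells of a type and less RNA per cell cannot be told apart in such pooled material, and the part of other cells in the results below was not tested.

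**Figure D1:**
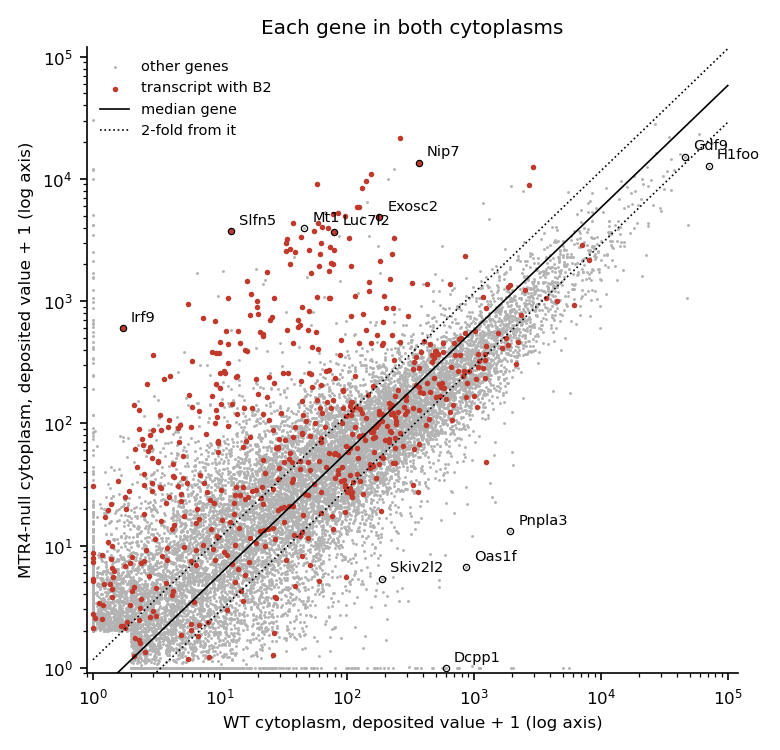
Each point is 1 of 15817 genes, by its deposited value + 1 in the WT cytoplasm (x, log axis) and the MTR4-null cytoplasm (y, log axis). Red points are the genes whose transcript holds the repeat B2, the solid line marks the median gene and the dotted lines 2-fold from it. Small RNA genes aside, 96 of the 149 genes with a transcript that lie at least 32-fold above the median gene are red, such as Slfn5 at 11.1 and 3724.

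A repeat sequence was frequent among the genes that stood furthest above the median gene in the null cytoplasm, small RNA genes aside. To look for shared sequence, expression values were used only for the limit that made a gene a member. The 20-base stretches of 1 annotated transcript per member, low-complexity ones left out, were ranked by the number of genes that held them. The first fell in B1 and the next independent one in B2, which are short interspersed repeats of rodents, copied through the genome by retrotransposition. Both are made by RNA polymerase III and are common in introns and 3' UTRs. B2 descends from a transfer RNA gene. The search went on past B2, and any further stretches were not compared with the values. The B1 and B2 stretches are shown because the counts below rest on them.
B1 stretch: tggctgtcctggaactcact
B2 stretch: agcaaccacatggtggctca

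The exact B2 stretch, on either strand, lay in the transcripts of 232 member genes, and an alignment to the whole repeat (at least 80% identity over at least 50 bases) found it in 583 of the 15395 members with a transcript. The windows below show the best match in 8 of the genes named as higher and in 2 lower genes, Cfl1 and Timm17a, that carry the same letters. Each is written in the orientation of the B2 stretch, with 5 bases on either side, and capitals mark bases equal to the stretch.
Irf9: atcccAGCAACCACATGGTtGCTCAcacct
Slfn5: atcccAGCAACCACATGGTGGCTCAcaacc
Tapbpl: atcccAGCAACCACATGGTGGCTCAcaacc
Lrrc2: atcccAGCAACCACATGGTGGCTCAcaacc
Nip7: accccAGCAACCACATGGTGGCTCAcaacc
Exosc2: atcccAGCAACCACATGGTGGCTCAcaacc
Luc7l2: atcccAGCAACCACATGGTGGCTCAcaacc
A330069E16Rik: atctcAGCAACgACATGGTGGCTCAcaacc
Cfl1: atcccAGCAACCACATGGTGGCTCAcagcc
Timm17a: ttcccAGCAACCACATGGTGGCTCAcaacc

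In 9 of these genes the match lay in the 3' UTR, and A330069E16Rik is a long noncoding RNA. In the 10 genes shown it ran along the transcript; in other named genes, AI506816, Cd300a, Gm16702, Psmb11 and Xist, it ran against it. It ended 129 bases before the transcript's 3' end in Exosc2, 135 in Luc7l2, 389 in Irf9 and 1933 in Lrrc2.

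Of the 583 genes with B2, 320 (54.9%) were higher in the null cytoplasm and 72 (12.3%) were lower, with a median relative difference of 1.36. Among the 14812 genes with a transcript but no B2, 24.2% were higher and 24.7% lower, with a median of -0.12. On the deposited scale, 274 of the 583 were still higher and 142 lower. Genes with the exact stretch had 66.4% higher and a median of 2.57. B1 went with a smaller difference: the 1047 genes with B1 alone had 29.6% higher and a median of 0.18. Of the 534 B2 genes at 1 or more in both columns, which were not kept through null alone, 286 (53.6%) were higher, against 21.1% of 12470 without B2.

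B2 was more frequent the larger the difference. It was in 3.81% of all members with a transcript that are not small RNA genes and in 1.94% of the lower genes. The share was 8.32% of genes higher at least 2-fold, 14.7% at least 4-fold, 27.7% at least 8-fold, 44.0% at least 16-fold and 64.4% (96 of 149) at least 32-fold. Both orientations had more higher genes than transcripts without B2, with 58.4% of 353 genes where every copy ran along the transcript and 49.1% of 216 where every copy ran against it. Noncoding transcripts with B2 were higher in 57 of 66 cases (86.4%), and genes with B2 in the 3' UTR in 259 of 504 (51.4%). With B2 in the 5' UTR, 3 of 12 genes (25%) were higher, with a median of -0.12. The 1 gene with B2 in the coding sequence was higher.

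The shorter the transcript around the repeat, the more often the gene was higher. Among B2 transcripts under 1500 bases, 32 of 38 genes (84.2%) were higher, and the share fell over the longer classes from 64.5% through 55.3% and 51.0% to 40.0% at 6000 bases and over. Without B2 the shares stayed between 23.0% and 26.7% over the same classes. The WT level mattered as well. At WT values of 5 to 20, 75.2% of B2 genes and 36.2% of the others were higher, and at 200 to 500 the shares were 20.9% and 3.91%. From 1000 to 5000, 2 of 29 B2 genes (6.90%) were higher and 51.7% lower, against 0.959% and 42.4% of genes without B2. How reads that match many repeat copies were assigned is a step the sources used here leave unsaid, and the part of such reads in these values was not tested.

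**Figure D2:**
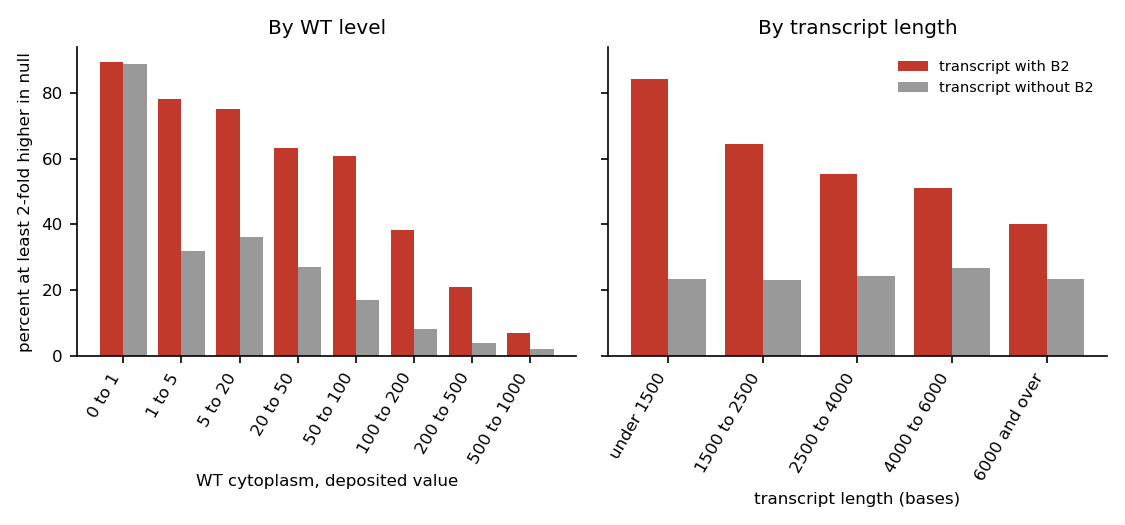
Bars give the percent of genes called higher in null on the relative scale, for transcripts with B2 (red) and without (grey). They are split by WT cytoplasm value (left, deposited values) and by transcript length in bases (right). The red bars exceed the grey ones in all 8 WT classes drawn, by little under 1 (89.5% against 88.8%), and in every length class, from 84.2% against 23.5% down to 40.0% against 23.4%.

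The B2 genes had a positive median relative difference in the nucleus as well, 1.15, against -0.03 for genes without B2. The null and WT nuclear columns were rescaled to each other in the same way, and of 13638 genes with a nuclear value of at least 1 in either column, 22.1% were higher and 16.2% lower in the null nucleus.

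Among single genes with B2, Slfn5, a member of the interferon-inducible Schlafen family, had 11.1 in WT and 3724 in null, with rank 10719 in WT and rank 86 in null (relative difference 9.01). Irf9, the DNA-binding part of the complex that answers type I interferon, had 0.711 and 605. Tapbpl, a peptide editor of MHC class I loading, had 4.59 and 937. In the nucleus these genes were higher in null too, with relative differences of 1.61, 2.09 and 2.52. Xaf1, another interferon-induced gene with B2, had 18.6 and 892.

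Other B2 genes had high values in null. Nip7, a factor of ribosome assembly, had 366 in WT and 13610 in null. Exosc2, a cap subunit of the exosome itself, had 178 and 4884 (relative difference 5.55). Luc7l2, a factor of the U1 small nuclear ribonucleoprotein, had 78.0 and 3696. The long noncoding RNA A330069E16Rik had 259 and 21467 and was among the 12 genes with the highest null values. Lrrc2 had 36.5 and 4332. The long noncoding RNA AI506816 had 57.7 and 9004. Not every B2 gene was higher: Cfl1, which encodes the actin-severing protein cofilin, had 8083 and 2183, and Timm17a, of the mitochondrial inner membrane translocase, had 6170 and 926.

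Of the 12 genes with the largest positive differences, 7 held B2, 2 did not and 3 had no transcript to search. Ccdc48, without B2, had 5.60 and 1686. The long noncoding RNA 2900060B14Rik, also without B2, had 8.72 and 1095. Mt1, a metallothionein that binds zinc and other metals, had 45.1 in WT and 3973 in null (relative difference 7.20), and its nuclear difference was 8.14. Rplp2-ps1 had 9.49 and 1779, but it is a pseudogene whose reads can be shared with its parent gene, so that its value is uncertain. LOC100302567 was listed at 0 in the WT cytoplasm and at 1058 in null, and in the nuclei the order was the opposite, 375 and 0.

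The lowest genes in the null cytoplasm were of mixed kinds. Pnpla3, a lipase of lipid droplets, had 1944 in WT and 12.1 in null (relative difference -6.46). Its nuclear values were 107 and 104, a relative difference of -1.21, since the median gene was higher in the null nucleus column. Dcpp1, Nhedc2, Galntl5 and 4930524B15Rik had 600, 143, 122 and 115 in WT and were all listed at 0 in null. Amd2 had 308 and 0.0128. Gm9786, Apoo-ps, Gm12669 and Rps19-ps3 are annotated as pseudogenes, and Dcpp1 and Amd2 have near-identical relatives, so that the split of reads among copies makes these values uncertain. Without small RNA genes, 31 genes had at least 20 after rescaling in WT and were listed at 0 in null, and 17 of them were also listed at 0 in the null nucleus while above 0 in the WT nucleus. In the other direction 21 genes were listed at 0 in WT, of which 1 held B2. In a table without counts, an exact 0 can be a failed estimate.

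Highly expressed genes lay lower in null, and weakly expressed genes higher. Among genes under 50 in WT and at least 1, the median relative difference was 0.33 (values of 1 to 5), 0.43 (5 to 20) and 0.25 (20 to 50). On the deposited scale the medians of these classes were -0.18, -0.28 and -0.51. The median relative difference fell from -0.02 at 50 to 100 through -0.31, -0.54, -0.86 and -0.88 to -0.96 at 5000 and over. In that last class, 106 of 219 genes were lower and 1 was higher. Part of such a slope is built in, because the WT value enters the difference. The WT nucleus column does not enter it, and with genes split by that column the median went from 0.85 (under 0.5) to -0.72 (100 and over). Genes kept only through the null column are among these. Among the 13322 genes at 1 or more in both cytoplasm columns the outer medians were 0.84 and -0.72, and this limit too removes low values of null. Both columns come from WT oocytes whose day is not named.

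**Figure D3:**
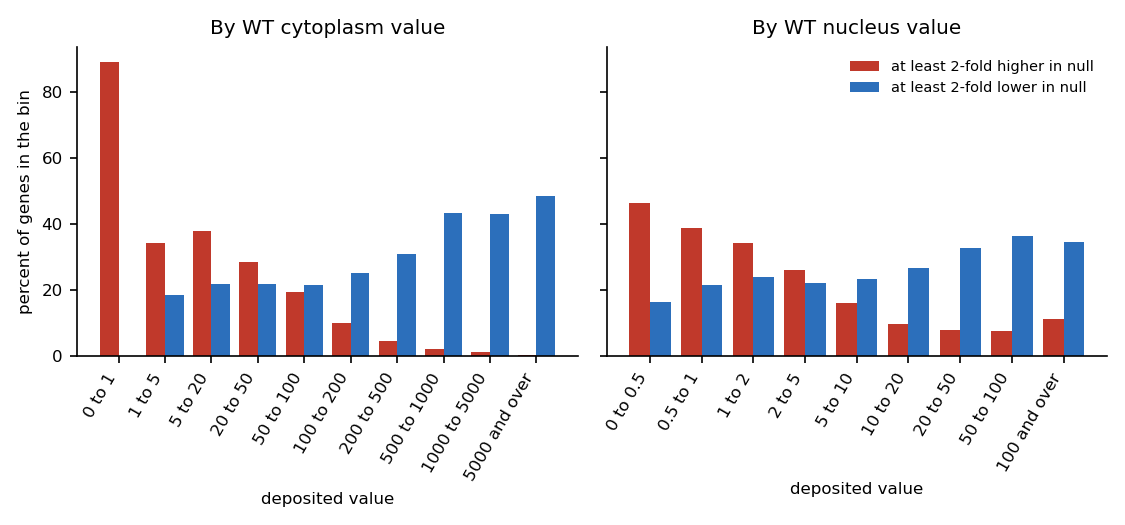
Bars give the percent of genes at least 2-fold higher (red) and lower (blue) in the null cytoplasm, relative to the median gene, by deposited value in the WT cytoplasm (left) or the WT nucleus (right). The lower share reaches 48.4% at WT cytoplasm values of 5000 and over, where 0.457% were higher, and 34.6% at nuclear values of 100 and over.

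The most abundant oocyte mRNAs show this in single genes. H1foo, the linker histone of the oocyte, had 70715 in WT and 12825 in null (-1.68). Tlcd2 had 48589 and 4230 (-2.74). Bcl2l10, an oocyte-rich relative of BCL2, had 35828 and 8087 (-1.36). Others stayed within 2-fold of the median gene. Ldhb, a lactate dehydrogenase subunit, had 59777 and 23516 (-0.56), and Zp3, a zona pellucida protein, had 42059 and 15931 (-0.62). Zbed3 and Padi6, both of the subcortical maternal complex, had 34760 and 22057 (0.13) and 27132 and 16305 (0.05).

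Of 39 gene lists with at least 5 kept members, markers and small RNA classes aside, 25 had a median below that of all genes (-0.08) and 14 above. A list of highly expressed genes shares the slope described above, and all genes had medians of -0.54 at WT values of 200 to 500, -0.86 at 500 to 1000 and -0.88 at 1000 to 5000. The median WT value of a list is given where its genes are abundant. Counts give genes higher and lower relative to the median gene, against 25.8% and 24.2% of all members.

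Genes of the meiotic spindle and its checkpoint had the lowest median, -1.22. Of 35 kept, 1 was higher and 18 lower (51.4%), and on the deposited scale 1 and 28. The median WT value of the list was 567, a level at which all genes had a median of -0.86. Plk1, a mitotic kinase, had 2040 in WT and 275 in null, and Ttk, the kinase that starts the spindle checkpoint, had 1180 and 143. Kif20a, a kinesin of the central spindle, had 448 and 43.3. Cdc20, the activator of the anaphase-promoting complex, had 1716 and 231. The exception was Sgol2, the shugoshin that guards centromeric cohesion in meiosis, with 122 and 1170 (4.03). Sgol2 held no B2.

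Of 30 genes of meiotic resumption, 2 were higher and 11 lower (median -0.71, median WT value 372), and 0 and 22 as deposited. Ccnb1, the cyclin of maturation-promoting factor, had 9547 and 1845, and Ccnb3 had 63.8 and 4.67. Mos, the kinase upstream of MAPK that holds eggs in metaphase II, had 8840 and 2649 (-0.96). Wee1, which inhibits CDK1, was higher with 117 and 199 (1.54), and so was Prkaca, the catalytic subunit of protein kinase A, with 87.8 and 126 (1.29).

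No member of the 16 genes of the subcortical maternal complex and the Nlrp family was higher, and 7 were lower (median -0.83 at a median WT value of 3183, 0 higher and 11 lower as deposited). Nlrp2 had 1495 in WT and 187 in null. Nlrp5, also known as MATER, differed little at 3995 and 2883 (0.31). The Nlrp4 and Nlrp9 genes are close copies of each other, and their split is uncertain. Of 9 zona pellucida and egg surface genes, 3 were lower and 0 higher (median -0.62, median WT value 5841). Zp1 had 15155 and 3025, Folr4, the sperm receptor Juno, had 5841 and 680, and Zp2 had 18301 and 10538 (-0.01).

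Among 24 oocyte transcription factor genes, 4 were higher and 8 lower (median -0.58, median WT value 562). Nobox, a homeobox factor needed for early follicle growth, was 6401 in WT and 646 in null (-2.52), while its nuclear difference was -0.93. Obox1, one of a family of near-identical homeobox genes, had 8959 and 1211. Sohlh1, a helix-loop-helix factor of primordial follicles, was higher with 8.56 and 39.3, as was Yy1 with 28.7 and 173. Figla, the factor that drives the zona genes, was within 2-fold with 877 and 756 (0.57).

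Cytoplasmic machines had more lower than higher genes, but except for the synthetases their medians lay above those of all genes of like WT level. Of 23 aminoacyl-tRNA synthetase genes, 0 were higher and 10 lower (median -0.88, median WT value 410). Of 39 proteasome genes, 3 were higher and 17 lower (-0.78, at a WT value of 1518), with Psma7 at 11375 and 1886. Of 75 mitochondrial ribosomal protein genes, 9 were higher and 25 lower (-0.70, at 848), and the highest difference was that of Mrpl43, a B2 gene with 195 and 1104. Of 64 translation factor genes, 8 were higher and 22 lower (-0.57, at 630). Eif2b4, of the exchange factor for eIF2, had 1681 and 169. The 84 cytoplasmic ribosomal protein genes varied less, with 4 higher, 12 lower and 68 within 2-fold (-0.44, at 3647), and 55 lower as deposited. The respiratory chain had 4 higher and 16 lower of 79 (-0.48, at 2064). Ribosomal protein and Eif3j values are uncertain because of their pseudogenes and close copies.

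**Figure D4:**
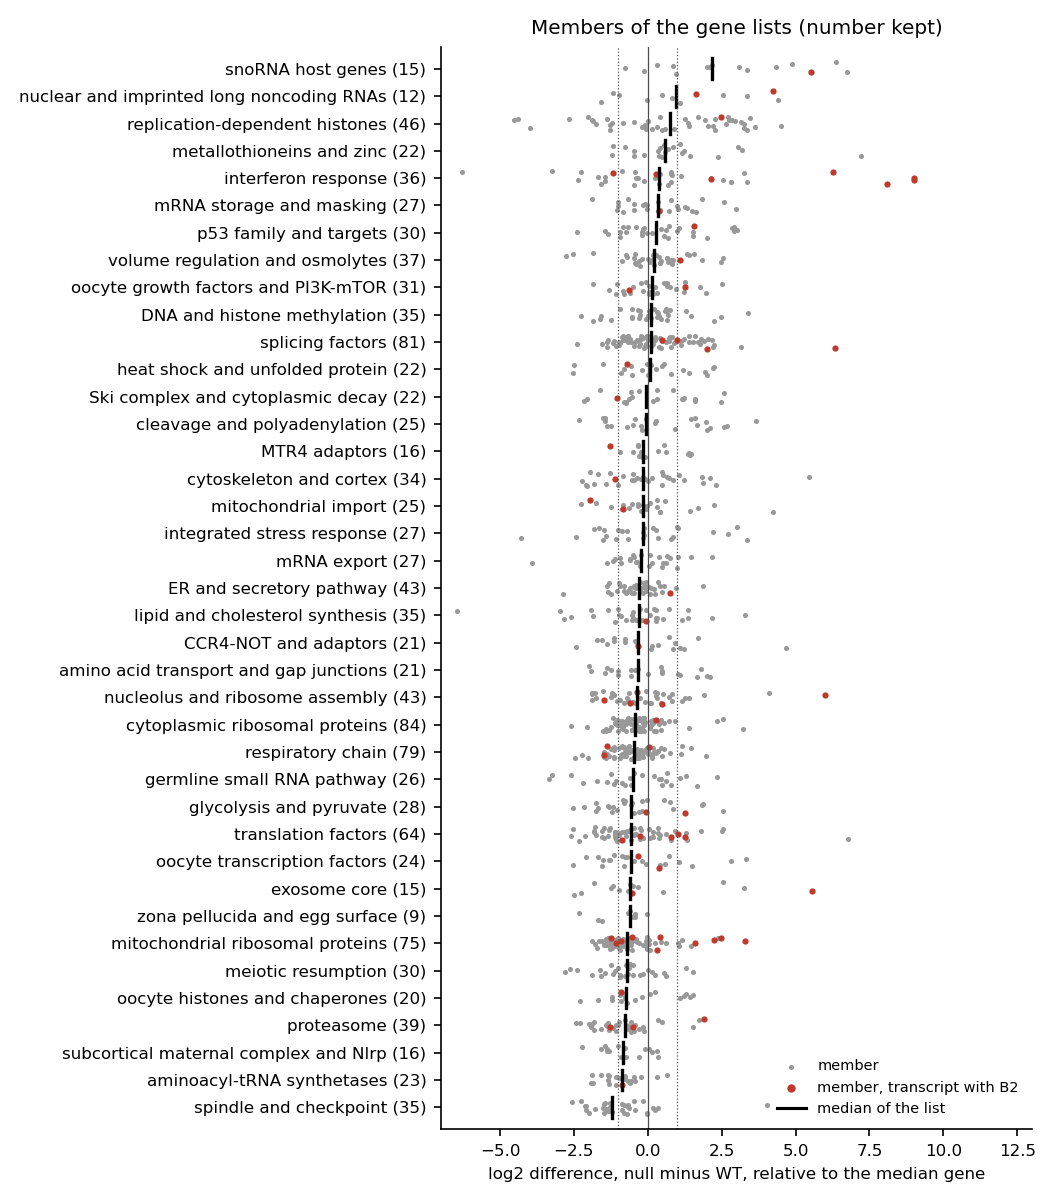
Each grey or red point is a kept gene of a list (number kept in brackets), placed by its relative log2 difference between the null and WT cytoplasm, with points spread vertically only for legibility. Red marks transcripts with B2, black bars the list medians, and dotted lines 2-fold. Medians run from -1.22 for spindle and checkpoint genes to 2.16 for snoRNA host genes.

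Among the lists, host genes of small nucleolar RNAs (snoRNAs) had the highest median, 2.16. These are genes whose introns carry snoRNAs, and whose spliced RNA is often decayed. Of 15, 10 were higher and 0 lower, and 10 and 1 as deposited. The list includes an entry or entries classed here by symbol as small RNA genes, and without them its median was 2.61. Only Snhg11 among them held B2, and 2 were under 1 in WT. Snhg9 had 210 in WT and 10043 in null, and Snhg3 had 20.9 and 1368. Snhg7 had 2.72 and 67.4, and Snhg4 had 3.56 and 56.7. Snhg1 (235 and 126) and Gas5 (64.2 and 68.5) were within 2-fold of the median gene. In the nucleus Snhg9 and Snhg4 differed by 5.05 and 4.70, and Snhg1 by -1.44.

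Long noncoding RNAs as a RefSeq class were higher more often than coding genes. Of 924, 447 (48.4%) were higher and 167 lower, with a median of 0.96, against 3450 and 3549 of 14446 protein-coding genes (-0.12). As deposited the counts were 351 and 264. Their median WT value was 7.29, low enough that part of the difference goes with level. B2 split the class: 53 of 61 with B2 were higher (86.9%), and 318 of 734 without it (43.3%). Of 12 nuclear and imprinted long noncoding RNAs, 6 were higher and 2 lower, with 2 under 1 in WT. Malat1, which resides in nuclear speckles, had 9.83 and 136. Xist, the RNA that silences an X chromosome, had 0.246 and 16.1. Its best match to the B2 stretch had 18 of 20 bases. Pvt1 was lower with 109 and 20.7.

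Replication-dependent histone genes, whose mRNA normally ends in a stem-loop without a poly(A) tail, split both ways. The table lists 67, of which 46 were kept, 7 of them only through null and 10 only through WT. Of the 46, 22 were higher and 12 lower (median 0.74), and 19 and 14 as deposited. Hist1h4c had 55.3 and 214, Hist4h4 had 12.6 and 82.1, and Hist1h2bc had 558 and 1497. The oocyte and testis variant Hist1h2aa went the other way with 1336 and 213, and Hist2h2ac and Hist1h3e were listed at 0 in null. These genes are near-identical, so each value is uncertain.

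For the exosome and its partners, no common direction was seen relative to the median gene. Among 15 exosome genes 3 were higher and 5 lower (median -0.61, median WT value 482), and 3 and 11 as deposited. Exosc2, Exosc6 (30.9 and 180) and C1d, a cofactor of the nuclear exosome (26.5 and 93.7), were higher. Exosc10, the nuclear exonuclease, was lower with 432 and 51.8, and Dis3l, the cytoplasmic exonuclease, with 895 and 91.9. Of 16 genes of MTR4 adaptors, 4 were higher and 1 lower. Zfc3h1, the scaffold of the poly(A) tail exosome targeting connection around MTR4, had 32.3 and 51.3 (1.41), and Pabpn1, the nuclear poly(A) binding protein, had 225 and 360 (1.46). On the deposited scale 0 of the adaptors were higher and 7 lower.

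Cytoplasmic decay factors gave 7 higher and 4 lower of 22 (median -0.05). Of the Ski complex, the cytoplasmic helper of the exosome, Skiv2l was higher (68.5 and 93.0, 1.21) and Ttc37 lower (78.9 and 9.72, -2.15). As deposited, only Pelo, the ribosome rescue factor (44.9 and 160), and Smg5, of nonsense-mediated decay (12.5 and 43.7), stayed higher in this list, and 11 genes were lower. Of 21 genes of the CCR4-NOT deadenylase and its adaptors, 4 were higher and 6 lower (median -0.32, median WT value 238). Zfp36l2, which brings CCR4-NOT to AU-rich mRNA, had 9.35 and 156 (4.66). Btg4, the adaptor used for clearance of maternal mRNA, had 23493 and 4140 (-1.72), and Cnot7, a deadenylase, had 1152 and 122 (-2.44).

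For mRNA storage, 8 of 27 genes were higher and 4 lower (median 0.35, median WT value 378), although the deposited scale gave 3 and 8. Ythdf1, a reader of methylated mRNA, had 50.9 and 182. Zar1 and Zar1l, which hold maternal mRNA in the cytoplasm, were both lower, with 14069 and 4057 (-1.01) and 7060 and 1096 (-1.90).

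Growth, volume and nutrient genes had members on either side of the median gene. Of 31 genes of oocyte growth factors and the PI3K-mTOR pathway, 7 were higher and 4 lower (median 0.14, and 3 and 9 as deposited). Eif4ebp2, a brake on cap-dependent translation downstream of mTOR, had 18.2 and 64.2 (2.52), and Fgf8 had 2164 and 350 (-1.84). Of 37 genes for volume regulation and osmolytes, 7 were higher and 3 lower (0.23), and 3 and 11 as deposited. Slc6a9, the glycine transporter that oocytes use for volume control, had 603 and 354 (0.01). Aqp9, a water and glycerol channel, had 162 and 13.3 (-2.76), and Slc5a3, an inositol transporter, had 3.64 and 16.1 (2.56). Of 21 genes for amino acid transport and gap junctions, 6 were higher and 7 lower (median -0.33). Gja4, the connexin of the oocyte's gap junctions with granulosa cells, had 10047 and 1482 (-1.98). Fasn, the fatty acid synthase, had 169 and 11.98 (-2.96).

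In the list of metallothioneins and zinc transporters, 8 of 22 were higher and 2 lower (median 0.57), and 4 and 5 as deposited. Besides Mt1, Slc30a1, the zinc exporter of the cell surface, had 18.6 and 104 (3.18), and Slc39a1 had 41.8 and 205 (3.04). Mt2 differed little (3.39 and 4.12), and Slc39a10, a zinc importer of oocytes, was lower with 546 and 141.

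The interferon response list, which B2 touches most in its high genes, had 12 higher and 9 lower of 36 (median 0.40, and 11 and 13 as deposited). Of these 36, 7 held B2, of which 5 were higher, namely Irf9, Slfn5, Tapbpl, Xaf1 and Ifnar1. Of the 36, 8 were under 1 in WT. The oocyte-rich Oas1 genes were lower, with Oas1f at 866 and 5.69, Oas1h at 9841 and 597, and Oas1d at 14891 and 1807. Ddx58, the RNA sensor RIG-I, was lower with 79.5 and 8.47, and Isg15 had 0 and 2.63. The Oas1 genes are close copies, which makes their split uncertain.

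Stress and checkpoint genes gave no common direction relative to the median gene. Of 30 genes of the p53 family and its targets, 9 were higher and 3 lower (median 0.29, and 5 and 9 as deposited). Gadd45a had 7.18 and 36.5, Mcl1 had 21.5 and 99.0, Mdm4 had 4266 and 467, and Cdkn1a had 8.23 and 3.40 (-0.41). Of 22 heat shock and unfolded protein genes, 6 were higher and 3 lower (on the deposited scale 4 and 8), with Hspa8, the constitutive HSP70, at 10978 and 1135 (-2.49). Of 27 genes of the integrated stress response, 5 were higher and 9 lower (on the deposited scale 4 and 12), with Atf4 at 2080 and 1071 (-0.17). Of 26 genes of germline small RNA pathways, 4 were higher and 9 lower, and 1 and 14 as deposited. Mael had 1736 and 98.8 (-3.34), and Piwil1 had 64.1 and 3.23.

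Factors of nuclear RNA processing and export had list medians near that of all genes, but above those of genes of like WT level. All genes had medians of -0.31 at WT values of 100 to 200 and -0.54 at 200 to 500. Of 81 splicing factor genes, 18 were higher and 8 lower (median 0.10, median WT value 262, and 10 and 30 as deposited). Of 25 genes of cleavage and polyadenylation, 9 were higher and 6 lower (-0.07, at 155, and 6 and 10 as deposited). Rbbp6, of the cleavage complex, had 24.2 and 189 (3.68). Of 27 mRNA export genes 3 were higher and 4 lower (-0.24, at 348), with Alyref at 85.7 and 229 and Thoc5 at 175 and 5.95. Zinc finger genes named Zfp were higher in 142 of 342 cases and lower in 43 (median 0.72, and 86 and 83 as deposited). Zfp607 (124 and 5905) and Zfp113 (18.7 and 996), chosen after their values were seen, both hold B2.

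Transcript structure went with direction even where B2 was absent. Over 5 equal groups of coding genes ordered by 3' UTR length, the median relative difference went from -0.56 (0 to 282 bases) through -0.34, -0.05 and 0.05 to 0.26 (2355 bases and over). Without B2 genes the outer values were -0.57 and 0.23. Within WT values of 100 to 500, B2 genes included, they were -0.74 and -0.25. The order thus held at like level in the cytoplasm, while every group lay below the median gene. There the share of higher genes was 5.47% and 6.58% in the outer groups. The nuclear medians of those outer groups had the opposite order, -0.26 and -0.55. Genes with a single exon were higher in 50.4% of 565 cases, and those with 2 to 4, 5 to 8, 9 to 15 and 16 or more exons in 35.3%, 24.4%, 19.9% and 17.2%. Within WT values of 20 to 100 the shares were 43.0%, 35.7%, 29.0%, 21.8% and 13.9%. Single-exon models include copies of spliced mRNAs whose reads may be shared with the parent gene, and the part of those was not tested.

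**Figure D5:**
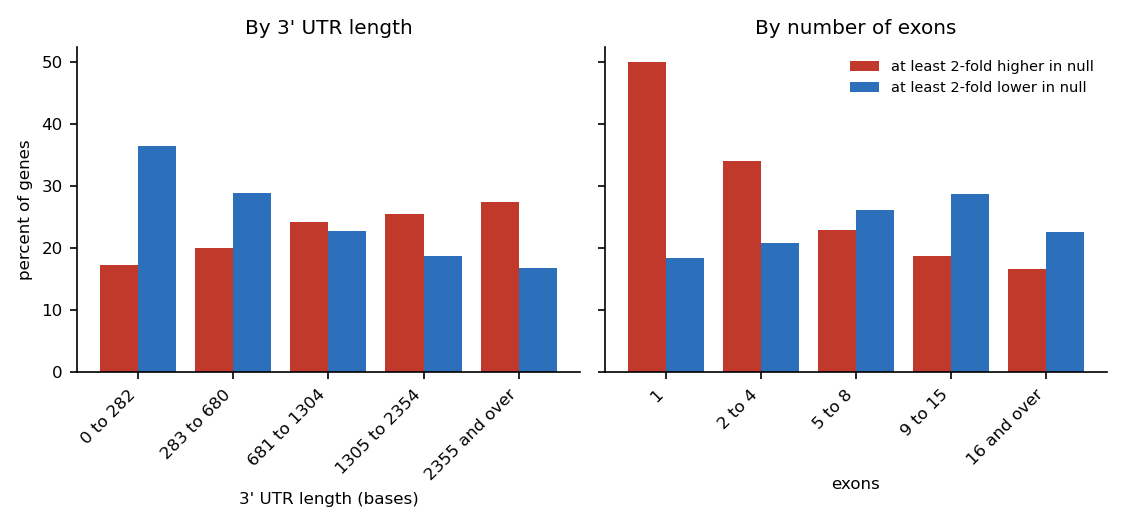
Bars give the percent of genes without B2 at least 2-fold higher (red) and lower (blue) in the null cytoplasm, relative to the median gene, by 3' UTR length in bases (left, 5 equal groups before B2 genes were set aside) and by exon number (right). The lower share falls from 36.5% to 16.9% with 3' UTR length, and the higher share is largest for a single exon and falls to 16.6% at 16 or more.

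In most cases the nuclear columns did not point the other way. Of 3349 genes higher in the null cytoplasm and at least 1 in a nuclear column, 2037 (60.8%) were also higher in null nuclei and 66 went the other way. Of 3115 lower genes, 1285 (41.3%) were lower in the nucleus and 63 higher. The shares over all 13302 such genes were 21.7% and 16.1%. Whether nuclei and cytoplasms of a genotype came from the same oocytes is not stated, so these shares may not be independent.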

How the data were processed

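Polyadenylated RNA of nuclei and cytoplasms of WT and MTR4-null mouse oocytes was measured in 13 libraries, 6 of them of cytoplasms. Per the submitters' processing notes, TopHat2 2.1.1, Cufflinks 2.2.1 and the build mm9 were used; their roles, the filters, and the treatment of reads with many matches are not given in the sources used here. The authors deposited 1 table of 23235 genes and 4 columns, named FPKM, which is treated as a score because the column totals differ too widely for 1 common scale. How libraries were averaged is not stated. In the null cytoplasm 64.5% of 8998 values between 20 and 90000 had at most 6 digits, and 100% once doubled. In WT the shares were 49.5% and 71.5% of 9618. The null column may thus be 1 library with its values halved. The part of such halving in the gap between column totals, and so in the deposited differences, was not tested. Depth in reads is unknown.

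From these values the cytoplasm columns were rescaled by the median ratio, genes of at least 1 in either column were kept, 1 was added, and log2 differences were taken with Python 3.11.15 and pandas 2.3.3. The rescaling and the 2-fold calls were tested on simulated columns in which few genes were changed, unlike the columns here. The other steps were not simulated. Symbols were matched to RefSeq (20652 by symbol, 2316 by synonym, 267 unmatched), and transcripts, their lengths, exons and UTRs come from GENCODE M21 (GRCm38), another build than the authors', so no coordinates are given. The repeats B1 and B2 were aligned with BLAST+ 2.17.0.

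The members, the 46 gene lists, the attention to B2 and the slope with level were chosen with earlier results of these data known, and none of them is independent support. Named genes are Skiv2l2, the 12 highest and 12 lowest relative differences among genes of at least 50 in the higher rescaled column, the 12 highest values of each column (all without small RNA genes), and in each list the 2 highest, 2 lowest and 2 most abundant members. Other list members named in the text were chosen after their values were seen. Other scalings, added constants and filters were planned, and leaving out B2 genes or small RNA genes was added after seeing the data. Symbols that are plain numbers (26) were left as they stand. A few single genes are not reported here.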

Additional observations from a re-analysis of the deposited data

How the results depend on the processing

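Counts of higher and lower genes in the null cytoplasm, 4075 and 3827 relative to the median gene, depended on the scale and on the constant added. As deposited they were 2565 and 7015, with 10 added in place of 1 they were 2203 and 2499, and with a filter of at least 10 the higher count was 2663. Higher genes made up 51.6% of those called on the relative scale, 26.8% as deposited and 64.6% with each column divided by its total, where the median of all genes moved to 0.25. Quantile normalization gave 3610 and 4017. Leaving out genes with B2 gave 3755 and 3755, and leaving out small RNA genes 4017 and 3799; both were chosen after seeing the data. Of 18 such counts, 13 stayed within 1.5 times and 5 did not. The medians of the lists and of the genes with B2 gave 420 values. Of these, 352 kept their sign and their side of 2-fold, though some changed in size. Another 31 changed sign within 2-fold, 26 passed 2-fold, 11 no longer did, and 0 past 2-fold changed sign. Of 2423 values of named genes the counts were 2268, 38, 46, 71 and 0. No paired analysis was possible because the table holds 1 column per group, and no replicate could be left out for the same reason. With no replicate and no depth, small differences cannot be told from noise.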

Other observations

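Small RNA genes of the table, whose mature products carry no poly(A) tail and whose short models give unstable values per length, were mostly apart from WT in either direction. Of 97 kept, 58 were higher in null by the 2-fold limit and 28 lower, and 41 were listed at 0 in WT and 20 in null. They took 2.65% of the WT total and 6.85% of the null total. Mir484 was listed at 0 in WT and at 30449 in null, and Mir762 had 48073 and 1053.

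Olfactory receptor genes named Olfr, which are silent in most tissues, were lower more often than higher in null. Of 90 kept, 38 (42.2%) were lower and 24 (26.7%) higher, against 24.2% and 25.8% of all members. Their median relative difference was -0.84, with a median value of 2.24 in WT and 1.31 in null. Values so near the limit of 1 depend on that limit, since genes kept through 1 column were selected for a higher value in it. Chromosome by chromosome, the median relative difference ran from -0.21 to 0.03. Of 3967 genes higher in null, 48.9% had a higher neighbour on the chromosome, against 44.2% of all genes with neighbours.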
